A study of Mus musculus with 4 samples.

Results

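Shoulder peaks are peaks of trimethylated lysine 4 on histone H3 (H3K4me3) that lie close to a protein-coding start site without touching a window around any start. They were taken by position alone from the list of peaks that the authors called on both pools of the study, here termed the replicated list. A peak was a member when it overlapped no window of 1000 bases either side of an annotated transcript start of any biotype, and when its nearest edge lay 1001 to 5000 bases from the nearest protein-coding transcript start (GENCODE release M21, mm10). Of the 25446 replicated peaks 2295 were members, or 9.02%. The remainder comprised 17464 peaks on a start window, termed start-window peaks, and 5687 peaks that met no window and lay further out, termed other distal peaks. The gene of a member is that of its nearest coding start.

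The assay was chromatin immunoprecipitation with sequencing (ChIP-seq) on frozen left cerebral cortex of B6CASTF1/J females with no treatment named, the first-generation hybrids of C57BL/6J and CAST/EiJ, at 2 months of age. Pool J and pool I each combined 4 cortex biosamples, and each was sequenced as 2 libraries. The libraries of a pool entered a single peak list, so the replicated list could be set beside 1 list per pool, and whether each biosample was a different animal is not stated in the labels. Each list reports whole cortex, in which a mark confined to a minor cell type and a weak mark in many cells cannot be told apart.

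H3K4me3 is deposited by SET-domain methyltransferases of the COMPASS family, whose complexes bind CpG-rich DNA and transcribing polymerase. At an active promoter the start site itself is depleted of nucleosomes, and the modified nucleosomes flank it, most of them in the first part of the transcribed gene. Promoters of genes that define a cell's identity often carry the mark over a wide stretch that reaches into the first intron. A peak beside a start can also belong to a separate promoter, such as that of an unannotated transcript or a transfer RNA (tRNA) gene.

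Sequences of 200 bases around the summit show how different the members' DNA is. The CpG values given later are over whole peaks and can differ from those of these windows. At Synpo2l the observed-to-expected CpG ratio was 0.885 in the window and 0.489 over the peak. All are from mm10, read on the strand of the member's gene, with CpG dinucleotides in capitals. The first 3 are the strongest downstream member, at Hist1h2bl (chr13:21710216-21710415, minus strand), one of the 5 strongest upstream members, at Plxnb2 (chr15:89173235-89173434, minus strand), and the strongest member whose gene had no start-window peak, at Synpo2l (chr14:20661286-20661485, minus strand). The next ones are the downstream and upstream members of median enrichment, at Dram1 (chr10:88376685-88376884, minus strand) and Rreb1 (chr13:37854129-37854328, plus strand). The last is in the first intron of Nlk (chr11:78692269-78692468, minus strand), with a ratio of 0.293 in the window itself. Its member has the CpG ratio nearest the median of all downstream members, among those in a first intron and in both single-pool lists. It was chosen after the values were seen.
Hist1h2bl: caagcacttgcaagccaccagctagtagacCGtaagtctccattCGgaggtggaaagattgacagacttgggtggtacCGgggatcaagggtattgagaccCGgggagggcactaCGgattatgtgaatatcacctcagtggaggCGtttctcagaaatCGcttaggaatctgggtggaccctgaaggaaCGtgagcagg
Plxnb2: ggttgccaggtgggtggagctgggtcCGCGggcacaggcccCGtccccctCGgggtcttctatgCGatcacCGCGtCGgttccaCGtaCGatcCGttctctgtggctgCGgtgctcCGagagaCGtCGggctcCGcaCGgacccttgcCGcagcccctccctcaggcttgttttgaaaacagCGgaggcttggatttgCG
Synpo2l: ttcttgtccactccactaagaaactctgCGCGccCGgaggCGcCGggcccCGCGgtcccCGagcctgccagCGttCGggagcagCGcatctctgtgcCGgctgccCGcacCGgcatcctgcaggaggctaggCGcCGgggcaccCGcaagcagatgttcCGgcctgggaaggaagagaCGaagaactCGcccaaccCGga
Dram1: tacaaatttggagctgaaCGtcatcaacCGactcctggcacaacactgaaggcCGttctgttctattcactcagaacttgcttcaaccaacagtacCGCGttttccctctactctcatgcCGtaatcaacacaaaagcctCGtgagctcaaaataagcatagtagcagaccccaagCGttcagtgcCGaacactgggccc
Rreb1: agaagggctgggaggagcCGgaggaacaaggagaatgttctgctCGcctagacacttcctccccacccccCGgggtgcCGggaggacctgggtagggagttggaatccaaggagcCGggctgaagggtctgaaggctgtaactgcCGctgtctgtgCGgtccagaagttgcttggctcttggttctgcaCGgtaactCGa
Nlk: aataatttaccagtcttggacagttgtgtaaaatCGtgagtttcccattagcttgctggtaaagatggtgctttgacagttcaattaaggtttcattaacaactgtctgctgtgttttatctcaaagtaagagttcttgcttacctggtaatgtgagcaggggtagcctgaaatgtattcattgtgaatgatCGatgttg
The windows at Synpo2l and Plxnb2 held 21 and 20 CpG dinucleotides, that at Nlk 2.

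Shoulder peaks lay mostly in the first kilobases of the transcribed gene. Of the 2295 members, 1752 were downstream of the nearest coding start, in the direction of transcription, and 543 upstream, so that 76.3% were downstream (95% Wilson interval 74.6 to 78.0; intervals here cover counting error only). Among distal peaks over 5000 and up to 50000 bases from a coding start 53.8% were downstream. The sequence available to members was of similar extent on both sides, 96.2 Mb downstream and 91.6 Mb upstream, which gave 18.2 and 5.93 members per Mb, a ratio of 3.07. In the list of pool J alone, 75.3% of the 1512 peaks that met the rule were downstream, and in that of pool I 76.0% of 2062 (mean 75.6% ± 0.516, SD, n = 2 pools).

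The downstream excess was larger beside starts that carried the mark themselves. A gene was counted as marked when a replicated peak overlapped the window of any of its starts, and 2074 members (90.4%) belonged to a marked gene. By nearest coding start, so did 84.2% of other distal peaks and 94.4% of all replicated peaks. Beside marked genes the density of members was 24.7 per Mb downstream and 7.43 upstream, a ratio of 3.32. Beside unmarked genes it was 4.43 and 2.84, a ratio of 1.56. Downstream of marked genes the density went from 35.6 per Mb at 1001 to 1500 bases to 14.6 at 4501 to 5000, while upstream it was 9.23 and 6.61 at these distances. The median distance from the start was 2524 bases, 2469.5 downstream and 2732 upstream.

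**Figure D1:**
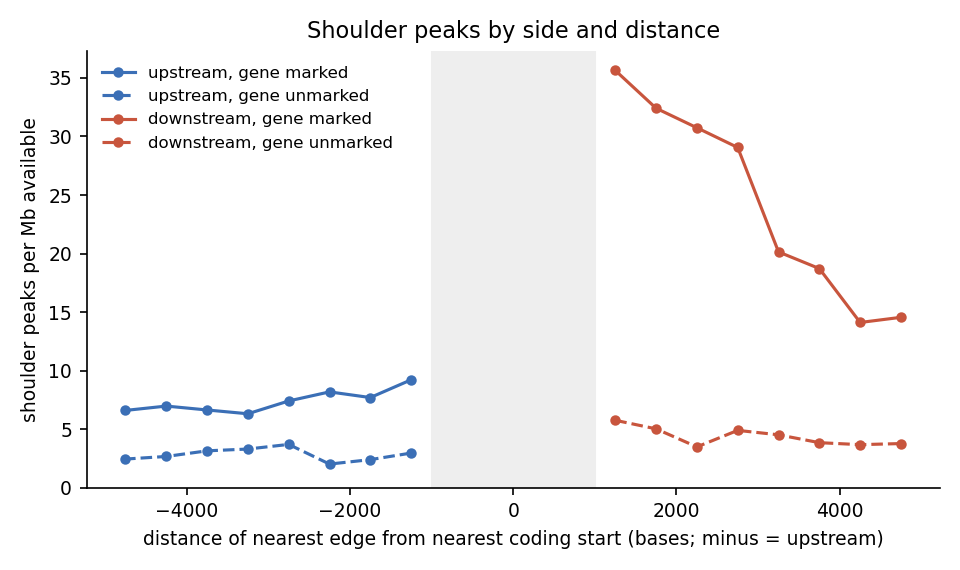
Shoulder peaks per Mb of available sequence (y) in bins of 500 bases of distance from the nearest coding start (x, minus for upstream; the grey band is the start window), for genes with and without a start-window peak. The downstream line of marked genes descends from 35.6 to 14.6 per Mb, and the 3 others stay under 10.

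Many members sat directly beside a start-window peak. The unmarked gap between a member and the nearest start-window peak had a median of 681 bases and a minimum of 77. The median was 401.5 bases for downstream members and 2611 for upstream ones. A gap of at most 1000 bases was found for 1300 members (56.6%), of which 89.8% were downstream, while 58.8% of the 995 members with a wider gap were. Joined through gaps of at most 1000 bases, from peak to peak, 1438 members (62.7%) formed a chain with a start-window peak, 1292 of them downstream and 146 upstream. The other 857 lay in no such chain. When peaks up to 1000 bases apart were merged before the rule was applied, 812 members were left, and 53.9% of them were downstream. The 53.8% of the more distant peaks was computed without merging.

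**Figure D2:**
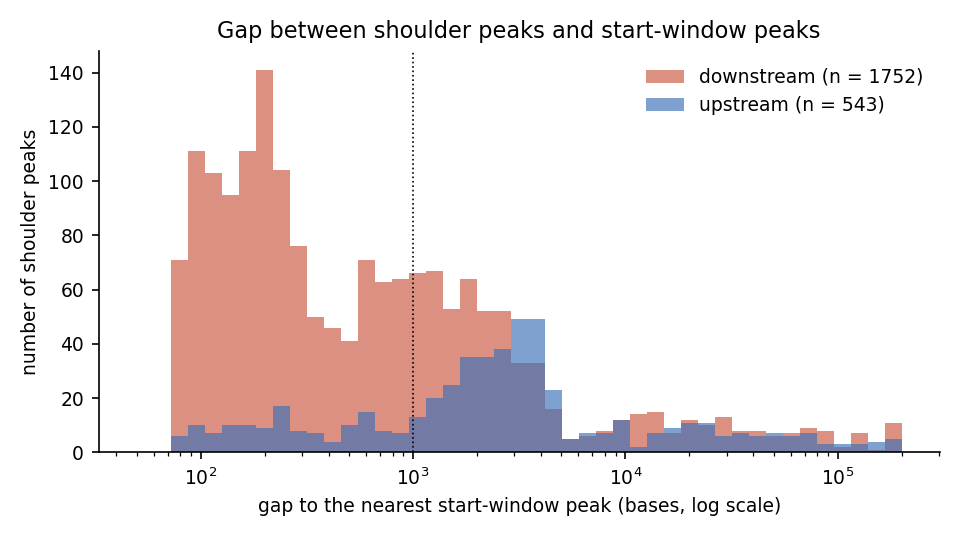
Number of shoulder peaks (y) by the gap to the nearest start-window peak (x, bases, log scale), with downstream members (n = 1752) over upstream ones (n = 543) and a dotted line at 1000 bases. Downstream members are concentrated at gaps of 100 to 300 bases, upstream ones at 2000 to 5000.

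The single-pool lists drew the boundary between start and shoulder differently at some genes. A member was counted as joined when 1 single-pool peak overlapped both it and a start window, each by at least 1 base. Such a peak need not cover the whole member or reach the start itself. Pool I peaks joined 258 of the 1769 members that met a pool I peak (14.6%), and pool J peaks 98 of 1232 (7.95%). Only 9 of the 1111 members that met a peak of both pools were joined to a start window in both. Mef2c encodes a transcription factor of excitatory neurons. There, 3 downstream members of 1296, 741 and 679 bases overlapped 1 pool I peak of 11791 bases with an enrichment of 21.8. Pool J had separate peaks of 1097 and 390 bases at the first and last of these 3 and none at the other. The first-intron member of Nlk, a kinase gene, was 1432 bases wide in the replicated list and 546 in pool J, and it was joined to the start in a pool I peak of 6490 bases.

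At Pou3f3 and Mbp it was the pool J list that joined member and start. The member of 5571 bases at Pou3f3, the widest of all, overlapped a start peak of 6953 bases in pool J. In pool I it met a separate peak of 5621 bases. Mbp, the myelin basic protein gene, had a member 1381 bases downstream that pool J joined to the start in a peak of 2514 bases and pool I called separately with 566 bases. As at Mef2c, the pool I list joined them at Homer1. At this postsynaptic scaffold gene a member of 538 bases met no pool J peak and overlapped a pool I start peak of 9512 bases.

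Shoulder peaks were narrow and weak beside start-window peaks. Their median width was 501 bases (quartiles 318 and 808, range 188 to 5571), against 1683.5 for start-window peaks and 495 for other distal peaks. The median enrichment, the authors' ratio for each peak, was 3.53, against 17.5 and 4.05. Upstream members had a higher median enrichment than downstream ones, 4.15 against 3.39. A deposited −log10 q of at least 10 was reached by 655 members (28.5%), while 71.4% of all replicated peaks reached it, and 62.4% of those 655 were downstream. The median width of the 655 was 937 bases. At least 1000 bases were spanned by 384 members (16.7%), and 105 members (4.58%) had a q above 0.05.

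Shoulder peaks met a peak in both single-pool lists less often than start-window peaks, of which 91.5% did. With an overlap of at least 1 base, 1111 members did so (48.4%, Wilson interval 46.4 to 50.5), with values above 50% under some alternatives and 96.5% among members with a −log10 q of at least 10. Of all replicated peaks 80.1% did so, and of other distal peaks 57.9%. A further 658 (28.7%) met a peak of pool I only, 121 (5.27%) one of pool J only, and 405 (17.6%) neither, against 6.88% of all replicated peaks and 15.8% of other distal peaks. Upstream members were in both lists in 61.0% of cases and downstream members in 44.5%. The pool I list was also the longer of the pair, with 24508 peaks against 21573, and the read numbers behind the lists are unknown. Their part in the larger share of pool I was not tested.

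Stronger members were more often present in both lists. Enrichment and presence come from the same pools, so such a rise was in part fixed in advance. In 4 equal groups of members from low to high enrichment, divided at 2.90, 3.53 and 4.87, the share in both lists was 10.8, 22.0, 63.4 and 97.6%. The share of downstream members went from 86.8% in the lowest group to 63.1% in the highest. The strongest member in neither list lay in the first intron of Col3a1, a fibrillar collagen gene, with an enrichment of 4.83 and a width of 264 bases. The strongest of pool I only, at Edar, had 6.50 in the replicated list and 7.79 in pool I. The strongest of pool J only, at Aaas, had 5.44 and a width of 425 bases, with 1384 bases in pool J.

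**Figure D3:**
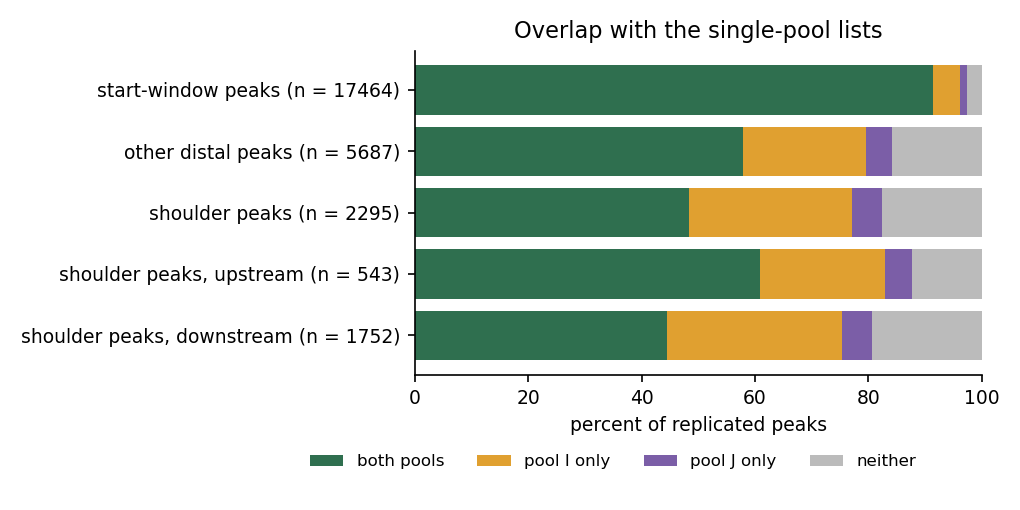
Percent of replicated peaks (x) that met a peak in both single-pool lists, in pool I only, in pool J only or in neither, for 5 sets of peaks (y). The part in both lists is 91.5% for start-window peaks, 48.4% for shoulder peaks and 44.5% for the downstream ones.

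Where both pools had a separate peak at a member, their widths were similar in most cases. At these 936 members the median widths were 723.5 and 862.5 bases in pools J and I, pool I peaks were a median 1.12 times as wide, and 74.3% differed by less than 1.5-fold. Spearman's rho of width between the pools was 0.719 across these members, which are not independent replicates and were selected from a list made from both pools. The member 1865 bases into Lrrc4c, a synaptic adhesion gene, was 3651 bases wide in the replicated list and 3650 and 3649 in pools J and I.

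Intronic members were the most frequent. By the position of the summit, 1296 (56.5%) lay in the first intron of a coding transcript, 221 (9.63%) in a later intron, 200 (8.71%) in coding sequence, 92 (4.01%) in a 3′ UTR, 72 (3.14%) in an intron of a non-coding transcript and 339 (14.8%) in intergenic sequence. After merging of peaks up to 1000 bases apart the share in introns of any kind went from 69.2% to 46.6%. A first intron held 31.4% of start-window summits and 14.9% of those of other distal peaks. Downstream members were in a first intron in 66.6% of cases, and upstream members were intergenic in 51.4%. That downstream members lie inside genes follows in part from the rule, and 95.2% of them lay in the gene of their own start.

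The DNA of downstream members was poor in CpG. The observed-to-expected CpG ratio, computed over the whole peak, had a median of 0.297, against 0.597 for start-window peaks and 0.460 for other distal peaks. It was 0.448 for upstream members and 0.257 for downstream ones. Members within 1000 bases of a start-window peak had a median of 0.228, and the others 0.433. The criteria of a CpG island (GC of at least 50%, a ratio of at least 0.6 and a length of at least 200 bases, applied to the peak as a whole) were met by 259 members (11.3%), against 33.1% of all replicated peaks and 12.4% of other distal peaks. Members in coding sequence met them in 57.5% of cases, members in a first intron in 2.16%. Over all members the median ratio was 0.461 with a −log10 q of at least 10 and 0.462 after merging. The 0.460 of other distal peaks was computed without a q limit or merging.

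**Figure D4:**
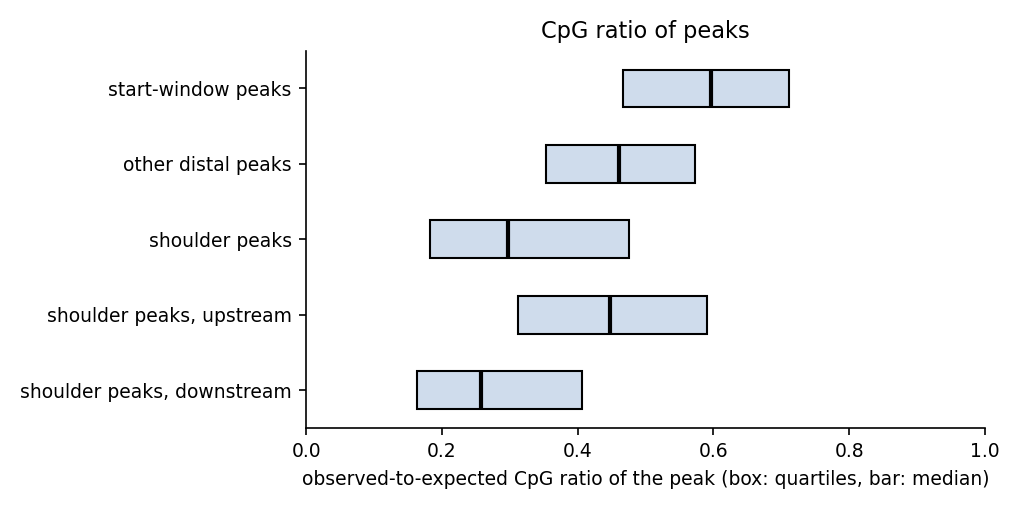
Observed-to-expected CpG ratio of the peak sequence (x) for 5 sets of peaks (y), with boxes from the lower to the upper quartile and a bar at the median. The median of downstream shoulder peaks, 0.257, is the lowest of the 5 sets and that of start-window peaks, 0.597, the highest.

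Wider members were on the whole stronger, with a Spearman's rho of 0.613 between width and enrichment across the 2295 members, 2 measures of the same reads. The widest downstream members after Pou3f3 were at Kdm6b (4663 bases), Grin2b (4399), Pou3f2 (4241) and Cnksr2 (4217). At Grin2b, which encodes the GluN2B subunit of the NMDA receptor, the member lay in the first intron, 3377 bases from the transcript start and 119 bases from the start-window peak, and was 3882 bases wide in pool J and 4404 in pool I, with enrichments of 10.9 and 12.8. The member of Pou3f2, a neural POU factor gene without introns, was 3113 and 4253 bases wide in the pools. Cnksr2, which encodes a neuronal scaffold of Ras signalling, had one of 3532 and 4611 bases with enrichments of 7.01 and 6.12. All 3 had a CpG ratio under 0.2 and lay within 120 bases of a start-window peak.

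An enrichment of at least 20 was reached by 17 members, of which 8 were downstream, 10 belonged to a marked gene, and 1 lay within 1000 bases of a start-window peak. Upstream members of Aurkb (22.0) and Zfp692 (22.4) and a downstream one of Kdm6b were among both these 17 and the 5 widest of their side. All 17 were in both single-pool lists. To see what lay there, transcript starts of the RefSeq annotation (GRCm38.p6, the mm10 sequence), which the rule had not used, were searched after the values were seen. Of the 17, 6 lay within 1000 bases of a tRNA start, 2 near another curated transcript start, 4 near the start of a predicted transcript alone and 5 near none. Among the 56 other distal peaks of that enrichment 17 lay near a tRNA start. Over all members 232 (10.1%) lay near a RefSeq start of any kind, against 11.5% of other distal peaks, and 19 (0.828%) near a tRNA start, against 1.64% of other distal peaks and 0.696% of all replicated peaks.

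The 19 members near a tRNA start were wide and mostly present in both pools, and 14 of them overlapped a tRNA gene. Their median enrichment was 15.2 and their median width 1547 bases, 18 of them met a peak in both single-pool lists, and 15 lay upstream of the coding start. tRNA genes are transcribed by RNA polymerase III from promoter elements inside the gene, the A box and the B box. The strongest member of all, downstream of the histone gene Hist1h2bl, had an enrichment of 29.7, with 27.3 and 30.4 in pools J and I, and held the tRNA genes n-TGgcc7 and n-TMcat7. The member assigned to the olfactory receptor gene Olfr750 (26.8, with 21.6 and 28.7 in pools J and I) held n-TLaag8, n-TPagg4 and n-TTtgt3. The member upstream of Aurkb, a mitotic kinase gene, held 4 tRNA genes in 2814 bases, with enrichments of 20.9 and 22.6 in pools J and I.

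Some of these tRNA genes are shown because they are the annotated transcripts inside the strongest members, and the capitals mark the motif GTTCNANNC, the core of the B box. They are n-TGgcc7 (chr13:21710580-21710650, plus strand), n-TLaag8 (chr14:51063883-51063964, plus strand), n-TTtgt3 (chr14:51065168-51065240, minus strand) and n-TGtcc6 at Aurkb (chr11:69041278-69041349, minus strand), each read 5′ to 3′ on its own strand from the RefSeq annotation and chosen after the values were seen.
n-TGgcc7: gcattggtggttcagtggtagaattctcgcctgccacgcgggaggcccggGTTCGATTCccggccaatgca
n-TLaag8: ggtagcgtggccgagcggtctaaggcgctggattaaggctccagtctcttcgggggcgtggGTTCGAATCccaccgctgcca
n-TTtgt3: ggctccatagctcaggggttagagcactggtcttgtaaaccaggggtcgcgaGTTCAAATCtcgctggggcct
n-TGtcc6: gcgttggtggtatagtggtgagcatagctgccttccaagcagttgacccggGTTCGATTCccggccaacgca
Searched on the strand of the tRNA gene alone, the motif was present in 24 of the 25 tRNA genes that lay wholly inside a member (96.0%) and in 371 of all 403 RefSeq tRNA genes (92.1%). A match is a description of the letters, and these peaks carry no measure of polymerase III.

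Genes without a start-window peak had 221 members. These were stronger than the members of marked genes (median enrichment 5.07 against 3.44), met both single-pool lists more often (70.1% against 46.1%) and met the CpG island criteria more often (36.2% against 8.63%). At Synpo2l, which encodes a protein related to synaptopodin, the member lay in coding sequence 2008 bases into the gene and reached 27.5, with widths of 1848 and 1707 bases in pools J and I. At Zfp869, a zinc finger gene, an upstream member reached 26.7 (27.5 and 24.7 in the pools), and at Clec11a, a secreted lectin gene, a downstream one 23.6 (24.3 and 23.1). Of the 221 members 28 lay within 1000 bases of a RefSeq start of the same gene symbol, those of Synpo2l and Zfp869 among them. At Clec11a no RefSeq start lay in that range.

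Kdm6b, which encodes a demethylase of lysine 27 on histone H3, was among these genes. Its strongest member, 4663 bases wide, ended 1059 bases from the annotated coding start, just outside the window, with an enrichment of 17.7 in pool J, where a peak of 4783 bases reached a start window, and 27.0 in pool I. Upstream of the same start lay 3 more members of 1199, 270 and 3857 bases, with enrichments of 11.1, 5.74 and 14.0, and each of the 3 was in both single-pool lists. RefSeq places starts of Kdm6b near all 4 members.

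Shoulder peaks were spread over many genes. In all, 1890 of 21938 protein-coding genes (8.62%) had at least 1 member, and 1682 of 14293 marked genes (11.8%) did. A single member was found at 1569 genes, 2 at 257 and 3 or more at 64, and 91 genes had members on both sides. Marked genes with a member had wider start-window peaks than other marked genes (median of the gene's widest 2560.5 against 1926 bases) but a similar highest enrichment (20.7 against 20.8). In 5 equal groups of marked genes from narrow to wide start-window peaks, 6.16, 8.26, 8.43, 12.3 and 23.7% had a member.

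A few genes had 5 or more members. Tcf4, a basic helix-loop-helix factor gene with many alternative starts, had 7 members, of which the strongest had an enrichment of 5.79. Mef2c had 6, and the strongest lay 4377 bases upstream of a start inside the gene, with 11.8 in the replicated list and 10.3 and 11.7 in pools J and I. Flt1, a receptor gene for vascular endothelial growth factor, had 5 downstream within its first intron, with widths of 304 to 805 bases and enrichments of 3.26 to 4.05. Of those 5, pool J had a peak at 2, of which 1 was joined to the start.

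Among 14 lists of genes, those of excitatory neuron markers and of neural transcription factors had the highest shares with a shoulder peak. These shares are set beside 8.62% of all protein-coding genes and 11.8% of marked ones, and the lists were compiled with earlier results on these peaks known. Markers of excitatory neurons had a member at 12 of 16 genes and transcription factors of the cortex and neural lineages at 21 of 30. A member with a −log10 q of at least 10 was found at 6 and 15 of these genes, and at 619 of all 21938 protein-coding genes. A member in both single-pool lists was found at 7 and 18, and at 1002 of all 21938. Start-window peaks were wide in the excitatory neuron and transcription factor lists, with medians of 4138.5 and 5755 bases. Among all marked genes the median was 2560.5 bases with a member and 1926 without. Across the 14 lists the share did not follow this width throughout. Synaptic scaffold and adhesion genes (4373 bases) had a member in 31.0% and activity-regulated genes (4198.5) in 27.3%. Oligodendrocyte markers (1837) had one in 53.8% and inhibitory neuron markers (1528) in 50%. The part of width in the shares was not tested.

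Transcription factor genes had members on both sides, 21 downstream and 14 upstream. Upstream of Sox4 a member of 2204 bases had an enrichment of 18.8, with 20.0 and 17.4 in pools J and I. Nr2f1 had one of 1988 bases with 9.47 (8.25 and 9.28 in the pools). At Neurod2, a factor of excitatory neurons, an upstream member had 8.55, and Fezf2, a factor of deep-layer projection neurons, had 2 downstream with 5.79 and 5.07. Bcl11a had 2 downstream members with the same enrichment of 4.36, of which pool I joined the nearer one to a start peak of 11435 bases.

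The sides of members at receptor, channel and synaptic genes are set beside the 76.3% downstream over all members. Of the glutamate and GABA receptor genes 17 of 33 had one, with 19 members downstream and 1 upstream, and the strongest were at Grin2b (11.5), Gabrb1 (5.79) and Grin2a (5.62). Voltage-gated channel genes had one at 10 of 33, with 10 members downstream and 3 upstream. The strongest of these was upstream of Scn2b, the sodium channel beta-2 subunit gene, with 14.4 in the replicated list and 10.8 and 14.5 in pools J and I. Synaptic scaffold and adhesion genes had one at 9 of 29, with 12 members downstream and 1 upstream and the strongest at Lrrtm1 (7.35). At the activity-regulated genes 6 of 22 had one. The strongest was a member of 1204 bases upstream of Fos, 1050 bases from the start, with 9.44 in the replicated list. Its widths were 1189 and 1202 bases in the pools. A member with a −log10 q of at least 10 was found at 4 receptor genes, 4 channel genes, 3 synaptic genes and 1 activity-regulated gene. Over all 21938 protein-coding genes 619 had such a member.

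Markers of other cortical cells had members at a varying share of genes. Inhibitory neuron markers had one at 8 of 16 genes, none with a −log10 q of at least 10. That limit was reached at 2 oligodendrocyte genes, 1 astrocyte gene, 1 endothelial or mural gene, 1 microglia gene and no oligodendrocyte precursor gene. Of all 21938 protein-coding genes 619 had a member that reached it. Gad1, the gene of the main GABA-synthesizing enzyme, had 2 with 3.54 and 2.25, each met by pool I only. Oligodendrocyte markers had one at 7 of 13, where the strongest was that of Mbp (10.5), and their precursors' markers at 2 of 9. Astrocyte markers had one at 5 of 13, with Sox9 (7.05) the strongest. Endothelial and mural markers had one at 5 of 16, among them Notch3 (11.1, with 10.3 in both pools) and Kdr (4.66). The microglia list had 1 of 14, an upstream member at Spi1, the gene of the myeloid factor PU.1, with 8.45 and with 7.63 and 9.12 in the pools, although no start window of Spi1 had a peak. Housekeeping genes had one at 3 of 16, and markers of other tissues at 1 of 16, at the skeletal muscle actin gene Acta1 (6.01).

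**Figure D5:**
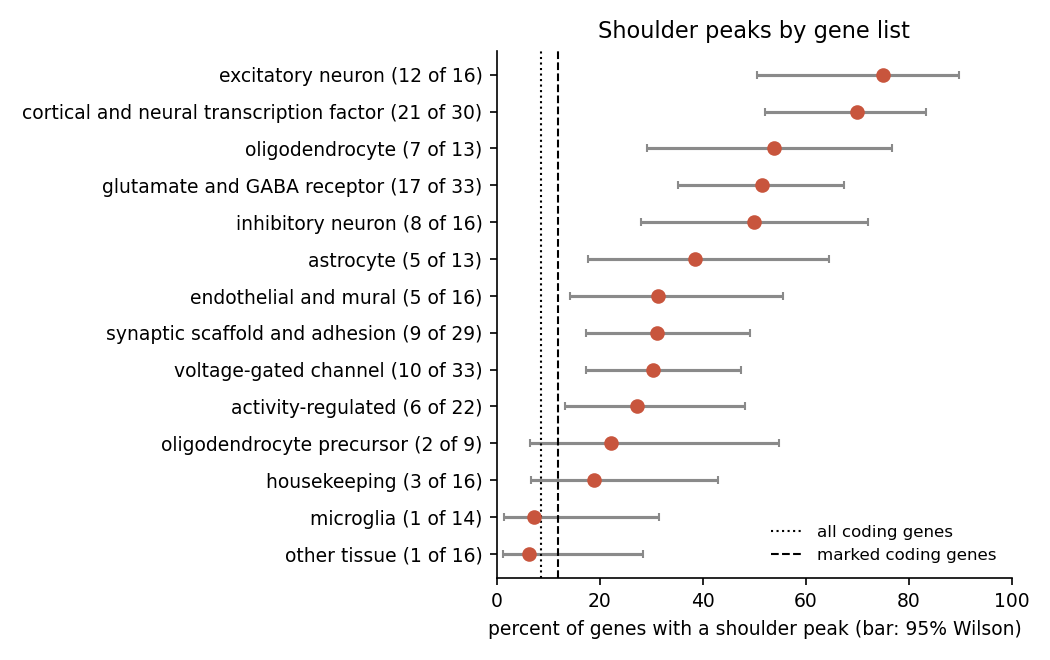
Percent of the genes of each list with at least 1 shoulder peak (x) for 14 gene lists (y), with 95% Wilson intervals, beside 8.62% of all coding genes (dotted) and 11.8% of marked ones (dashed). The highest points are excitatory neuron markers at 75.0% and neural transcription factors at 70.0%, and the lowest are microglia at 7.14% and other tissues at 6.25%.

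The tissue label was checked on start-window peaks. Slc17a7 of excitatory neurons, Gad1 of inhibitory neurons, Slc1a2 of astrocytes, Mbp of oligodendrocytes and Cldn5 of endothelium had one in the replicated and both single-pool lists. Cx3cr1 of microglia had one of 211 bases in the replicated list alone, and the liver gene Alb had none.

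The members nearest the start window were those of Pdk4 and Gpr182, 1002 bases from the start, with enrichments of 3.95 and 6.20. Just inside the window and so outside the set lay a peak at Phyh, 1000 bases from the start, with 3.09, and one at Chtf8, at 999, with 2.40. At the outer limit the last members were those of Rexo1 (4999 bases, 4.05), Pde2a (4995, 5.69) and Kctd1 (4995, 3.13), and the first peaks beyond it were at Frmd6 (5012, 2.58) and Gpbp1 (5015, 3.74).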

How the data were processed

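H3K4me3 ChIP-seq of 4 libraries from 2 pools was deposited as 4 lists of peaks on mm10, per the labels and the text files deposited with each library: pool J, pool I, the pooled reads and the replicated list. The aligner and caller are not given in the sources used, nor are read numbers, so the depth is unknown. Each peak has an enrichment ratio, here taken as fold over control, given by the authors. The deposited −log10 q served as a filter. Groups are the 2 pools of the labels.

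Positions, counted from 1, were set against GENCODE M21 (132633 starts, 54329 of them coding) with Python 3.11.15, pandas 2.3.3 and numpy 2.4.6. The script was tested on simulated peaks. Overlap required 1 base. Available sequence was all sequence at a member's distance outside start windows. Shares have 95% Wilson intervals. Since 1 list per pool exists and peaks are not replicates, no p-value was computed. Members and gene lists were chosen with earlier results of these data known.

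The genes named were, per side, the 5 members of highest enrichment, the 5 widest and the 3 nearest each limit. To these came the 5 genes with most members, the 5 strongest members of unmarked genes, of 1 pool only and of neither, and up to 3 genes per list. Of the genes this rule took, some are given by counts alone and some are not reported here. Nlk, Lrrc4c, Nr2f1, Bcl11a and Gad1, the RefSeq search and 2 of the alternatives were added after the values were seen. Alternatives varied the list, q, window, outer limit, starts, overlap and merging of peaks.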

Additional observations from a re-analysis of the deposited data

How the results depend on the processing

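Downstream members outnumbered upstream ones under each alternative run. The 2295 members became 1512 in the pool J list, 1211 and 655 with a −log10 q of at least 5 and 10, 1353 with windows of 2000 bases, 812 with peaks up to 1000 bases apart merged, and 1111 with members in both single-pool lists alone, an alternative added after seeing the data. In the same order the downstream share of 76.3% became 75.3, 68.9, 62.4, 73.5, 53.9 and 70.2%. It was 77.4% in the pooled-reads list, 75.1% with windows of 500 bases, 71.5% with an outer limit of 10000 bases, 75.0% with windows of coding starts alone, and 79.0% without members near a RefSeq start, also added after seeing the data. The median distance of 2524 bases became 2490 in pool J, 2214 and 3227 with windows of 500 and 2000 bases, 3269 with the outer limit of 10000, 2483 with coding windows alone, 2707 with the 5′-most coding start alone, 3179 after merging and 2554 without members near a RefSeq start. The share in both single-pool lists, 48.4%, was 78.9 and 96.5% at the q limits of 5 and 10. It also passed 50% after merging (58.4%), with the outer limit of 10000 (50.6%) and with coding windows alone (50.7%). For members taken from a single-pool list the measure was overlap with the other pool's list alone. It was 91.0% for the pool J list and 55.6% for the pool I list. Median width went from 501 to 937 bases at the q limit of 10, the intronic share from 69.2 to 46.6% after merging, and the median CpG ratio from 0.297 to 0.461 and 0.462 under these 2 settings. The share of members with a marked gene, 90.4%, was 88.2% in pool J, 84.7 and 77.9% at the q limits, 73.9% after merging and 86.0% for members in both lists. Of 1890 genes 619 were left under the q limit of 10 and 1002 with members in both lists. Fewer peaks entered under the q limits, merging and larger windows by construction. The cause of the other shifts was not tested. No paired analysis was possible because the results come from no test and each pool has a single list. With the reads behind each list unknown, peaks missing from a single-pool list were not detected there, which does not show that they are absent.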
